A study of Mus musculus with 6 samples.

Results

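The genes described here encode the ligands, receptors and antagonists of the interleukin-1 and interleukin-18 systems in mouse macrophages. They were taken by gene symbol, which gave 8 genes (Il1a, Il1b, Il1rn, Il1r1, Il1r2, Il1rap, Il18 and Il18bp) of 52459 listed, and all 8 were among the 14857 genes with enough reads for a test. The series compared bone marrow derived macrophages of C57BL/6 mice that were given RIP1i with cells given DMSO, the solvent control. Both groups had been cultured in cRPMI with GM-CSF, a growth factor that yields macrophages together with dendritic-like cells, and the agent was added overnight from day 7. Each group held 3 RNA sequencing libraries. The compound behind RIP1i and its dose are not named in the labels. Nor is it stated that replicates came from separate cultures or animals, so the p-values reflect only how much these libraries varied, possibly for technical reasons. The comparison addresses how RIP1i alters the transcriptome of these cells.

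Interleukin-1 alpha and interleukin-1 beta are inflammatory cytokines that act through one receptor. The signalling receptor IL1R1 binds either ligand and recruits the accessory chain IL1RAP, after which the adaptor MyD88 passes the signal to NF-kB. This is held in check by the receptor antagonist, encoded by Il1rn, which occupies IL1R1 without signalling, and by IL1R2, a decoy receptor that binds the ligands but lacks the signalling domain. Interleukin-18 uses its own receptor pair, and IL18BP is a soluble protein that neutralises it. Interleukin-1 beta and interleukin-18 are made as precursors that caspase-1 cuts inside inflammasomes, so a transcript level is not a measure of released cytokine. RIP1 kinase, the protein that RIP1i is named for, acts in signalling below the TNF receptor.

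The libraries held between 40264902 and 44862310 counts. Of the 8 macrophage markers checked, including Lyz2, Cd68, Csf1r and Adgre1, none was at 0 in any library, and their summed level ran from 45077 to 59270 CPM (each count set against its library's total, corrected by the TMM factor). The 8 dendritic cell markers were also present, at a summed 2056 to 2661 CPM. Libraries differed within groups in the marker levels of other cells. The 10 neutrophil markers summed to 460, 228 and 628 CPM in DMSO replicates 1 to 3 and to 467, 660 and 225 CPM in RIP1i replicates 1 to 3. The 8 stromal markers summed to 180, 319 and 73.3 CPM in DMSO and to 206, 68.1 and 158 CPM in RIP1i, in the same order. All 8 stromal markers were fitted lower in RIP1i, with a median log2 fold change of -0.41, and 8 of 9 tested neutrophil markers were fitted higher, with a median of 0.043, and 0 of them passed (edgeR adjusted p). DMSO replicate 3 and RIP1i replicate 2 were thus high in neutrophil markers and low in stromal markers, and they belong to different treatments. In bulk RNA, fewer cells of a type and less RNA per cell cannot be told apart.

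No gene of the system was called different between the treatments. With the quasi-likelihood test of edgeR, 0 of 8 genes had an adjusted p under 0.05, as did 0% of the 14857 genes tested. At an unadjusted p under 0.05 there was 1 of 8 (Il1rap), against 6.21% of all genes. The fit placed 4 genes higher and 4 lower in RIP1i, with a median log2 fold change of 0.0060 beside 0.0025 over all genes tested, and a median size of 0.13 beside 0.075. For 2 of 8 genes the libraries of the groups did not overlap (Il1rap higher, Il1a lower in RIP1i), against 13.5% of all genes (7.36% higher and 6.18% lower).

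**Figure D1:**
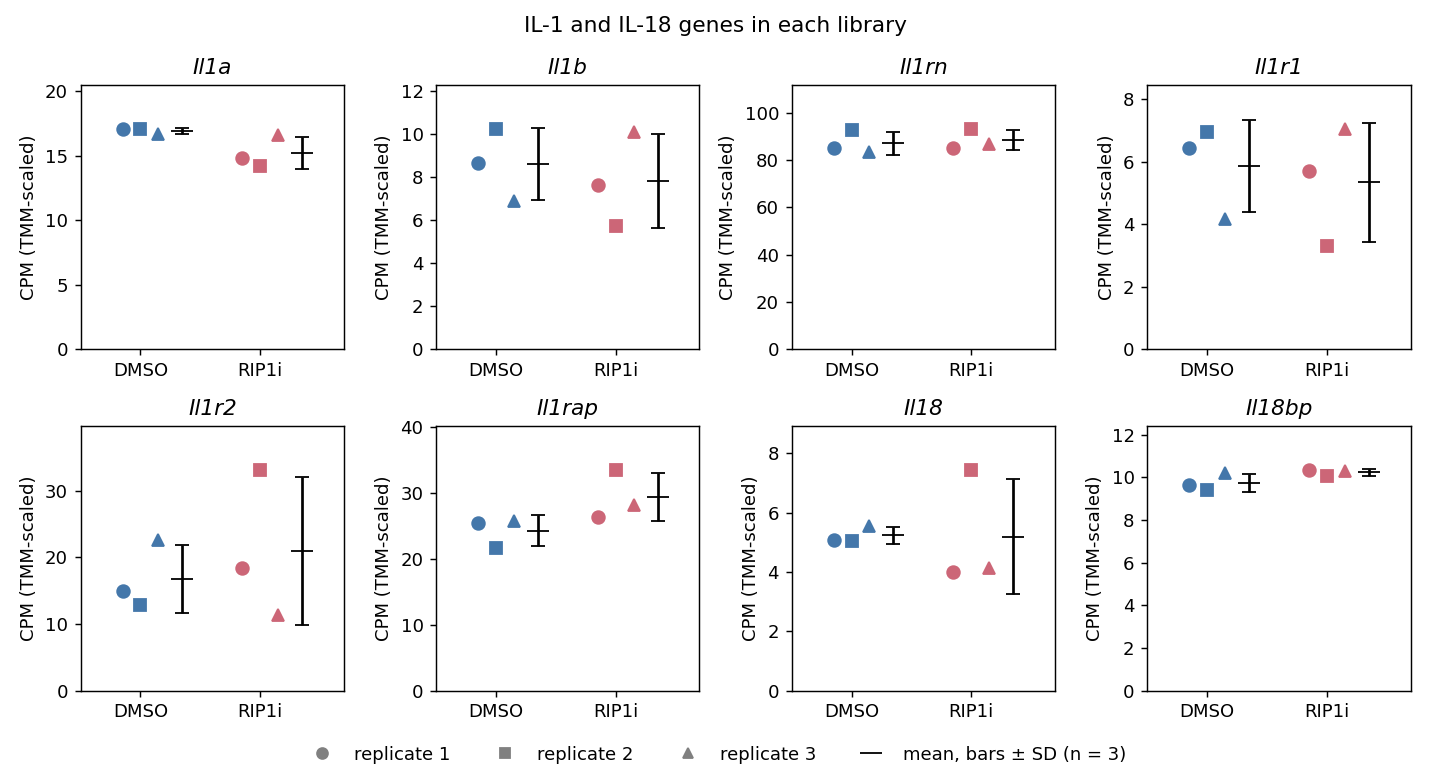
Level of each gene in each library, in CPM with TMM scaling on an axis that starts at 0. Symbols mark the replicate number, and the black bars give the mean ± SD of the 3 libraries of a group. The groups are separate only for Il1a, where RIP1i lies at 14.2 to 16.6 and DMSO at 16.7 to 17.1, and for Il1rap, where RIP1i lies at 26.4 to 33.4 and DMSO at 21.6 to 25.8.

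Promoter sequences are shown for 3 genes whose windows held no annotated exon, namely Il1a, which did not overlap between groups, and Il1b and Il1r1, which varied together across libraries. Each run holds the 250 bases before a RefSeq transcript start on build GRCm38.p6, the assembly also called mm10, read 5′ to 3′ on the gene's own strand. Capitals mark the letters of 5 motifs: the NF-kB consensus, the AP-1 motif TGANTCA, the C/EBP motif TTNCNNAA and the PU.1 motif GAGGAA, each on both strands, and the TATA box TATAAA on the gene's strand. The windows lie at chr2:129309973-129310222 (minus strand) for Il1a, chr2:129371140-129371389 (minus strand) for Il1b, and chr1:40224830-40225079 and chr1:40266336-40266585 (plus strand) for 2 starts of Il1r1, the second of them in an intron of the gene.
Il1a: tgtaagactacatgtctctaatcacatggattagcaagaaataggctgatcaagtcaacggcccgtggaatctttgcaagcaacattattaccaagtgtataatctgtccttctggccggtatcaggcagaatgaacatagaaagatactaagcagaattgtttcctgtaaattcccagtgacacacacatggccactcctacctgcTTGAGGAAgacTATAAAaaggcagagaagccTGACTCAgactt
Il1b: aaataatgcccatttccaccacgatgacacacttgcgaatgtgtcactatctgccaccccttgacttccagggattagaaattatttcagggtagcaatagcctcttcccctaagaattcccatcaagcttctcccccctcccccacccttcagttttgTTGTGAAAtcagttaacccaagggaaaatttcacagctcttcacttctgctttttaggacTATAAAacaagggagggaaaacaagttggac
Il1r1, upstream start: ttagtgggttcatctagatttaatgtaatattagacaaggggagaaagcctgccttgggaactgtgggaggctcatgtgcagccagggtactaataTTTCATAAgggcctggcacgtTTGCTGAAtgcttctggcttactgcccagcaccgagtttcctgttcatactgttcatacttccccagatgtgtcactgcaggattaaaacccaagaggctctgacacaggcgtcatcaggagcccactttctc
Il1r1, intronic start: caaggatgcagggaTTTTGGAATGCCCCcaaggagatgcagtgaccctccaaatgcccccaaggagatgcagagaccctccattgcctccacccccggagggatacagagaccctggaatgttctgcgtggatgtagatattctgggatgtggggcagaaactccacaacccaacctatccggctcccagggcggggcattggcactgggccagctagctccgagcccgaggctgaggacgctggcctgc

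Both ligand genes held a TATA box at almost the same place, beginning 32 bases before the start in Il1a and 31 bases before it in Il1b. Such a box was found in 7.59% of 32851 promoter windows of this length. Il1a also had an AP-1 motif 12 bases before the start (6.75% of windows) and a C/EBP motif that overlapped a PU.1 motif, at 43 and 41 bases before it (36.8% and 23.3% of windows). The Il1b window held 1 C/EBP motif, 91 bases before the start. The upstream window of Il1r1 held 2 C/EBP motifs, 154 and 133 bases before the start. The intronic window held an NF-kB consensus match 232 bases before the start (3.90% of windows), which overlapped a C/EBP match at 236. The Il18 window, also free of exons, held none of the 5 motifs and is not printed. These matches describe letters in the windows and do not show that a factor binds there.

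The ligand genes lie 54597 bases apart on chromosome 2. Il1a (129299610 to 129309972, minus strand) stood at 17.1, 17.1 and 16.7 CPM in DMSO replicates 1 to 3 and at 14.8, 14.2 and 16.6 CPM in RIP1i replicates 1 to 3. The groups did not overlap, with RIP1i lower, but RIP1i replicate 3 lay just under the lowest DMSO library. DMSO averaged 16.9 ± 0.229 CPM and RIP1i averaged 15.2 ± 1.26 CPM (SD, n = 3). The log2 fold change was -0.15 ± 0.069 (SE) with a 95% interval from -0.32 to 0.0067, an unadjusted p of 0.058 and an adjusted p of 0.777 in edgeR. The interval allows a level up to 19.6% lower. Without RIP1i replicate 3 the log2 fold change was -0.23, with an adjusted p of 0.773.

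Il1b (129364570 to 129371139, minus strand) varied more than Il1a, and its groups overlapped throughout. It stood at 8.63, 10.2 and 6.90 CPM in DMSO and at 7.64, 5.72 and 10.1 CPM in RIP1i. The lowest value was in RIP1i replicate 2, and RIP1i replicate 3 was nearly as high as the highest DMSO library. The log2 fold change was -0.13 ± 0.22 (SE), with an interval from -0.64 to 0.38 and an edgeR adjusted p of 0.931. It had no stable direction, moving to 0.038 when RIP1i replicate 2 was left out and to -0.37 when RIP1i replicate 3 was. The antisense transcript Il1bos overlaps Il1b by 1243 bases but held only 0 to 3 reads in a library, against 241 to 418 for Il1b.

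Il18 (chromosome 9, 50554827 to 50581840, plus strand), the second inflammasome substrate among the ligands, stood at 5.08, 5.05 and 5.57 CPM in DMSO and at 4.02, 7.43 and 4.13 CPM in RIP1i. The DMSO libraries were close together and lay between the RIP1i libraries, of which replicate 2 was the highest of all 6 and the other two the lowest. The means were 5.23 ± 0.290 and 5.19 ± 1.94 CPM (SD, n = 3), which the fit gave as a log2 fold change of -0.011 (95% interval -0.56 to 0.54). Without RIP1i replicate 2 it was -0.37, with an unadjusted p of 0.012 and an adjusted p of 0.692 in edgeR. The equal means of Il18 thus came from RIP1i libraries on both sides of DMSO.

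The soluble antagonists Il18bp and Il1rn had the smallest within-group standard deviations of log2 CPM among the 8 genes, 0.046 and 0.074. Il1rn (chromosome 2, 24336853 to 24351494, plus strand) stood at 85.02, 92.6 and 83.4 CPM in DMSO and at 85.2, 93.1 and 86.8 CPM in RIP1i. Each group had a library near 93, and the groups overlapped almost fully. Its log2 fold change was 0.023 ± 0.055 (SE), with an interval from -0.11 to 0.15. RefSeq lists several starts for Il1rn, which give a secreted form and intracellular forms, and the gene-level counts do not separate them.

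Il18bp (chromosome 7, 102014885 to 102018690, minus strand) stood at 9.65, 9.41 and 10.2 CPM in DMSO and at 10.3, 10.1 and 10.3 CPM in RIP1i. DMSO replicate 3 lay within the RIP1i range, so the groups overlapped. The log2 fold change was 0.069 ± 0.064 (SE), with an interval from -0.082 to 0.22 and an edgeR adjusted p of 0.878. Its spread within groups, a coefficient of variation of 3.18%, was below the 4.86% that counting alone gives at its 378 to 463 reads. The end of the gene overlaps 80 bases of Numa1 on the opposite strand, which had 5342 to 5909 reads. How reads in that overlap were counted is not given in the sources used here.

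The receptor genes Il1r2 and Il1r1 lie 99848 bases apart on chromosome 1 and gave opposite library patterns. Il1r1 (40225080 to 40317257, plus strand), the signalling receptor, stood at 6.45, 6.94 and 4.18 CPM in DMSO and at 5.70, 3.30 and 7.05 CPM in RIP1i. DMSO replicate 3 and RIP1i replicate 2 were the lowest, and RIP1i replicate 3 was the highest. Il1r2 (40074079 to 40125231, plus strand), the decoy, stood at 14.98, 12.8 and 22.6 CPM in DMSO and at 18.4, 33.1 and 11.4 CPM in RIP1i. Here the same 2 libraries were the highest and RIP1i replicate 3 the lowest, the exact reverse of the order in Il1r1.

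Neither receptor separated the groups. The fitted log2 fold change was -0.13 ± 0.29 (SE, 95% interval -0.81 to 0.55) for Il1r1 and 0.32 ± 0.37 (-0.55 to 1.19) for Il1r2, with edgeR adjusted p of 0.947 and 0.898. Leaving out RIP1i replicate 2 turned both, to 0.11 for Il1r1 and -0.19 for Il1r2, while leaving out RIP1i replicate 3 gave -0.38 and 0.61. For Il1r2 the data allow anything between 0.682-fold and 2.28-fold, the widest interval of the 8 genes.

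Il1rap (chromosome 16, 26581704 to 26730117, plus strand), the accessory chain, stood at 25.5, 21.6 and 25.8 CPM in DMSO and at 26.4, 33.4 and 28.2 CPM in RIP1i. All 3 RIP1i libraries lay above all 3 DMSO libraries, although RIP1i replicate 1 exceeded DMSO replicate 3 only slightly. The means were 24.3 ± 2.35 and 29.3 ± 3.67 CPM (SD, n = 3), which the fit gave as 20.8% higher. The log2 fold change was 0.27 ± 0.10 (SE), with an interval from 0.030 to 0.51, an unadjusted p of 0.032 and an adjusted p of 0.777 in edgeR. By p it ranked 566 among the 14857 genes. Leaving out RIP1i replicate 2, the highest library, lowered it to 0.16 (edgeR adjusted p = 0.713). Leaving out DMSO replicate 2, the lowest, as well lowered it to 0.077 (edgeR adjusted p = 0.716). Dropping the highest RIP1i and the lowest DMSO library must narrow the difference, so this fall tests no cause. That pair was chosen after the data were seen. These 2 libraries also had the lowest and the highest stromal marker level. Over the 6 libraries Il1rap had r = -0.75 with the summed stromal markers (negative for all 8). Its r was 0.84 with the summed dendritic cell markers (positive for 6 of 8) and -0.92 with the macrophage sum (negative for 5 of 8). Of these sums, Itgax makes up 52.7% to 57.1% of the dendritic and Lyz2 88.4% to 91.3% of the macrophage one. All 9 tested neutrophil markers and all 7 tested mast cell and basophil markers had a positive r with Il1rap. Of the dendritic cell markers 7 of 8 were fitted higher in RIP1i, with a median log2 fold change of 0.096, and 0 passed. The part of these cells in the result was not tested.

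**Figure D2:**
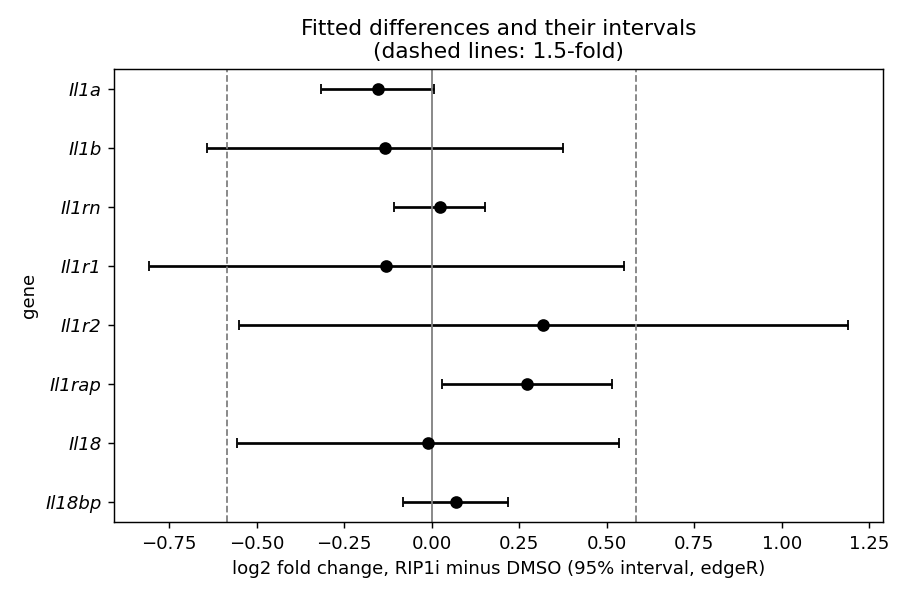
Log2 fold change of RIP1i over DMSO for each gene, with its 95% interval from edgeR. The dashed lines mark 1.5-fold in either direction. The intervals of Il1a, Il1rn, Il1rap, Il18 and Il18bp lie within 1.5-fold, those of Il1b, Il1r1 and Il1r2 reach past it, and only that of Il1rap leaves out 0.

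**Figure D3:**
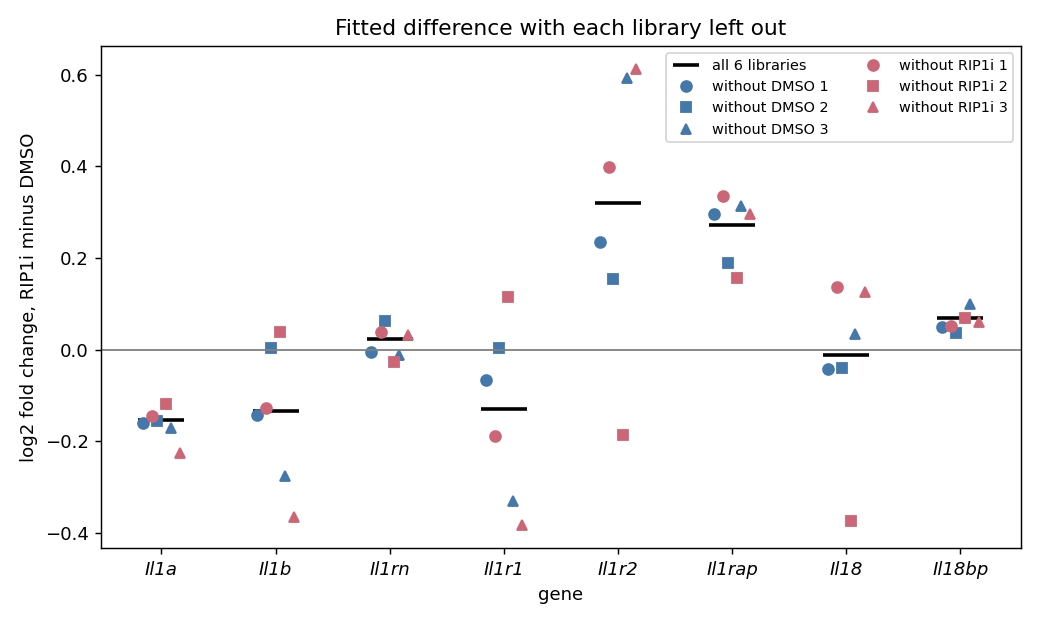
Log2 fold change of each gene with all 6 libraries (black bar) and with each library left out in turn (symbols). Il1a, Il1rap and Il18bp keep their sign in all 6 cases. Il1r2 runs from -0.19 to 0.61 and Il18 from -0.37 to 0.14, each with its lowest value without RIP1i replicate 2.

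Compared per length, in the deposited FPKM, the antagonist Il1rn was the most abundant of the 8 transcripts and the signalling receptor Il1r1 the least. Il1rn stood at 15.7 ± 0.863 FPKM in DMSO and 15.9 ± 0.831 FPKM in RIP1i (SD, n = 3), and Il1r1 at 0.920 ± 0.229 and 0.837 ± 0.294 FPKM. Between them, by the mean of 6 libraries, came Il1r2 at 9.88 FPKM, Il1a at 8.13, Il18 at 5.05, Il1b at 4.29, Il18bp at 3.30 and Il1rap at 2.36. Only the last 2 steps of this order, from Il18bp to Il1rap and from Il1rap to Il1r1, had ranges that did not overlap. Il1r2 was above Il1a in only 3 of 6 libraries and Il18 above Il1b in 3 of 6, so those neighbours did not differ beyond their spread. Il1rn was above Il1r2 in 5 of 6, the exception being RIP1i replicate 2, where Il1r2 reached 17.4 FPKM.

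The balance of each inhibitor to its partner followed from these levels, as ratios of FPKM within a library. Il1rn exceeded Il1b by 3.39, 3.12 and 4.16 times in DMSO and by 3.85, 5.60 and 2.96 times in RIP1i. Over Il1a, the other ligand, the excess was smaller, at 1.77, 1.93 and 1.78 times in DMSO and 2.05, 2.33 and 1.86 times in RIP1i. The decoy exceeded the signalling receptor in every library, and Il1r2 over Il1r1 was 7.74, 6.14 and 18.0 in DMSO and 10.8, 33.4 and 5.37 in RIP1i. That ratio spanned a wider range within each group than between the group means of 10.6 and 16.5. Il18bp over Il18 was 0.648, 0.634 and 0.625 in DMSO and 0.879, 0.462 and 0.851 in RIP1i. In DMSO this last ratio was nearly constant, while in RIP1i 2 libraries were higher and 1 lower than all of DMSO. All these ratios rest on the gene lengths behind the FPKM. Relative to Il1b, the implied length was 1.58 for Il18bp, 0.54 for Il18, 3.33 for Il1r1 and 1.00 for Il1r2. By CPM, which takes no account of length, Il18bp was above Il18 in every library. The other inhibitors stayed above their partners by CPM as well.

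**Figure D4:**
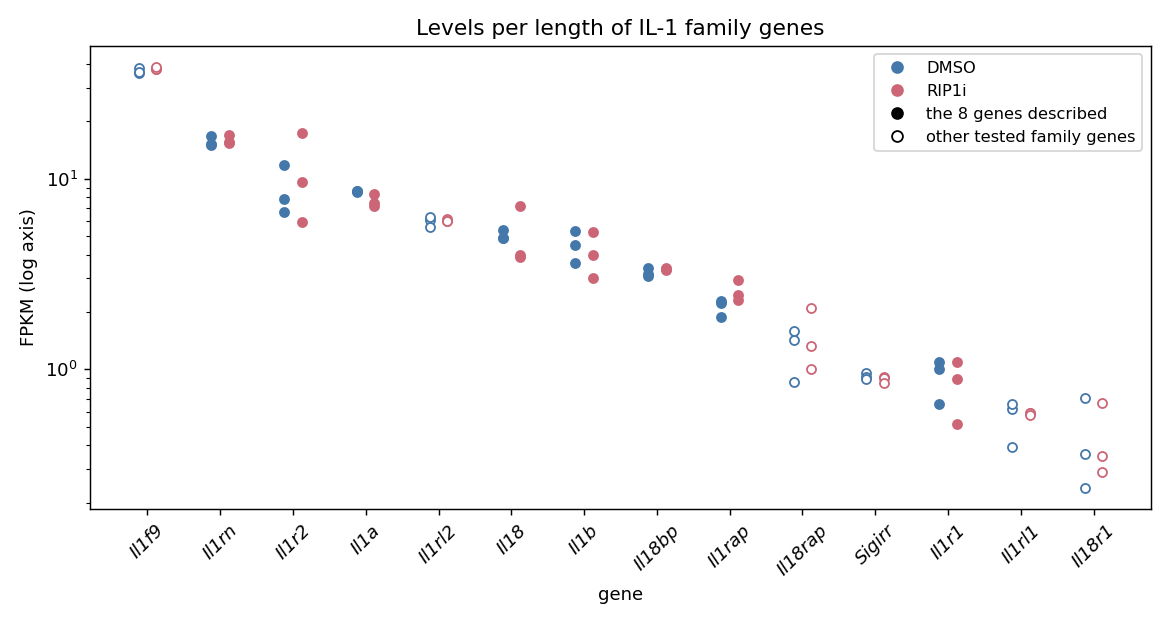
FPKM of the 8 genes (filled points) and of the other tested IL-1 family genes (open points) in each library, on a log axis and in order of the mean of 6 libraries. Il1f9 lies above all 8 genes at 35.9 to 38.6 FPKM, and Il1r1 lies at 0.52 to 1.1 FPKM.

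The within-group spread differed widely among the 8 genes, without a clear division into sets. Over libraries of the same treatment, the standard deviation of log2 CPM was 0.62 for Il1r2, 0.48 for Il1r1, 0.36 for Il18 and 0.35 for Il1b. Among genes within 2-fold of the same mean CPM, that of Il1r2 was larger than 99.1% (3830 genes, median 0.080), that of Il1r1 than 95.2%, that of Il1b than 94.9% and that of Il18 than 91.5%. Il1rap, at 0.16, exceeded 91.0%. Il1a and Il1rn lay near the middle, above 50.1% and 65.3%, and Il18bp near the bottom, above 7.65%. Counting error does not reach the spread of Il1r2, Il1r1, Il18 or Il1b. For Il1r2 the coefficient of variation within groups was 45.7%, against 3.53% from counting at 471 to 1393 reads.

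Il1b, Il1r1 and Il1r2 varied together across the 6 libraries, with Il1r2 in the opposite direction. Of all 28 pairs among the 8 genes, 3 had a Benjamini-Hochberg adjusted p under 0.05 for Pearson's r of log2 CPM in an exact permutation test over the 6 libraries, and they were the 3 pairs of these genes. Il1r1 and Il1r2 had r = -0.98 (exact permutation p = 0.00139, the smallest the 6 libraries allow, adjusted p = 0.0259). Spearman's rho for that pair was -1 (exact permutation p = 0.00278, adjusted p = 0.0778). Without the 2 libraries farthest from the median of Il1r1, r was still -0.98.

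Il1b and Il1r2 had r = -0.99 (exact permutation p = 0.00278, adjusted p = 0.0259) and rho = -0.94 (exact permutation p = 0.0167, adjusted p = 0.156). Il1b and Il1r1 had r = 0.97 and rho = 0.94, with the same exact permutation p-values. Without the 2 libraries farthest from the median of Il1b, r was -0.9995 for the pair with Il1r2 and 0.93 for the pair with Il1r1. None of the 3 passed in rank order after adjustment. The relations were as close after each library was set against the mean of its own group, at -0.98, -0.99 and 0.97, so they held within the treatments as well. Each group alone, with 3 libraries, was too small for a test. The 3 pairs are made of the same 3 genes, so they are not separate results. The permutation treats the 6 libraries as interchangeable, and the labels do not say whether they came from separate cultures.

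Such agreement was common in these libraries. Of 8348 other genes averaging 10 CPM or more, 424 (5.08%) had an r of at least 0.95 in size with Il1r2, 378 (4.53%) with Il1r1 and 339 (4.06%) with Il1b. For Il1rn there were 10 (0.120%), for Il18bp 14 (0.168%), for Il1a 48 (0.575%), for Il18 55 (0.659%) and for Il1rap 97 (1.16%). The closest genes in pattern were Mad1l1 and Eif4h for Il1r2 (r = 0.9988 and 0.9975), Zcchc2 and Sgk1 for Il1r1 (0.9985 and 0.9974), and Plpp3 and Mid1ip1 for Il1b (both 0.99), each over 6 libraries. For 4 of the other genes they were Iqsec2 and Pwwp2a for Il1a (0.99 and 0.98), Arhgap18 and Sub1 for Il1rap (both 0.99), Tsnax and Tradd for Il18 (0.9973 and 0.9908), and Cox6a1 and Map2k5 for Il1rn (0.98 and 0.97).

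Marker levels of other cells moved with these genes. Over the 6 libraries, the summed neutrophil markers had r = 0.89 with Il1r2, -0.85 with Il1r1 and -0.93 with Il1b on the log2 scale. The stromal markers had -0.80, 0.88 and 0.83. All 9 tested neutrophil markers had a positive r with Il1r2 and a negative one with Il1r1, and all 8 stromal markers the reverse. The signs were not particular to neutrophil markers, since all 7 tested mast cell and basophil markers had the same ones. The macrophage markers gave no common direction, with 5 of 8 positive and 3 negative against Il1r2, and their sum is 88.4% to 91.3% Lyz2. Of the dendritic cell markers 7 of 8 were positive and 1 was negative. These correlations rest on the same 6 libraries and describe them only. Neutrophils are known to carry IL1R2 and fibroblasts IL1R1. The neutrophil sum was 660 CPM in RIP1i replicate 2 and 628 CPM in DMSO replicate 3, the libraries with the most Il1r2, and 225 and 228 CPM in RIP1i replicate 3 and DMSO replicate 2, those with the least. The part of these cells in the receptor pattern was not tested. Lymphocyte markers summed to 1.64 to 2.85 CPM, with 2 to 6 of 9 at 0 in a library, and mast cell and basophil markers to 168 to 207 CPM, with 1 of 8 (Mcpt4) at 0 in each. Of the latter sum 88.6% to 95.9% is Kit, which other cells also express.

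**Figure D5:**
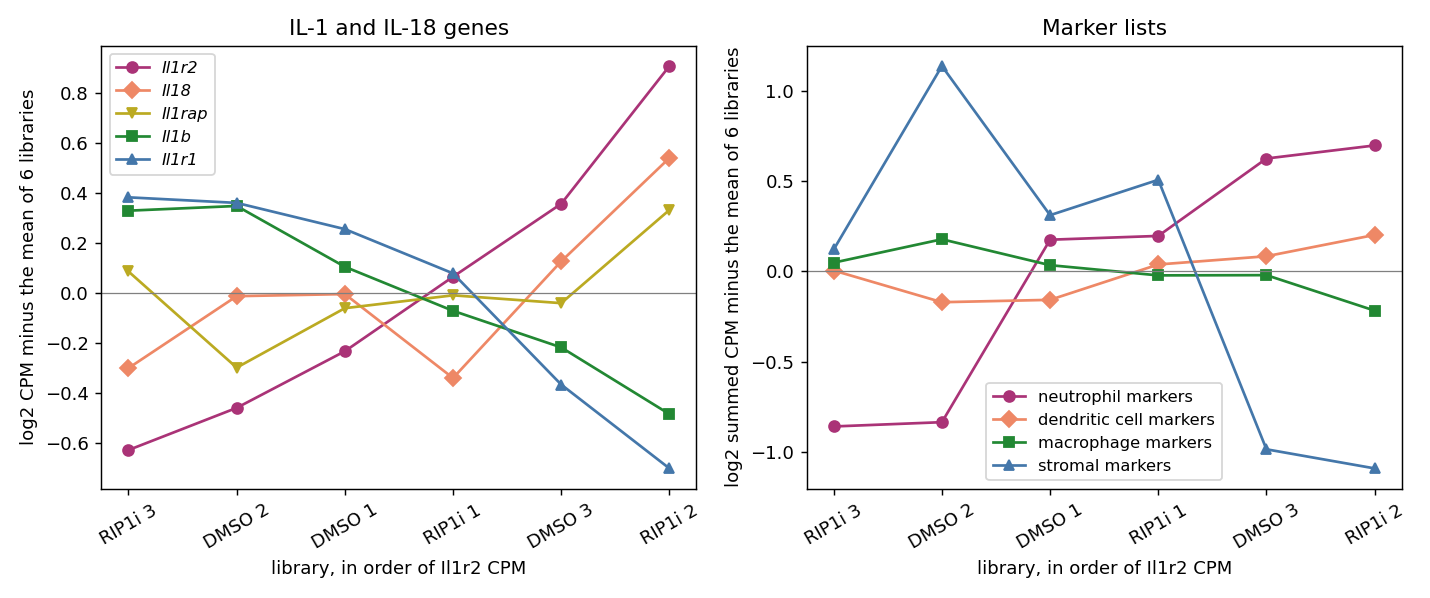
Left, log2 CPM of 5 genes minus their mean over the 6 libraries. Right, the summed CPM of 4 marker lists on the same kind of scale. Libraries stand in order of Il1r2 CPM. Il1b and Il1r1 fall from left to right as Il1r2 climbs, the lowest and the highest library on the axis are both RIP1i, and the neutrophil markers climb while the stromal markers are lowest in the last 2 libraries.

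The rest of the family was represented by the interleukin-36 branch more than by interleukin-33. Of 6 other ligand genes only Il1f9, which encodes interleukin-36 gamma, could be tested. It stood at 38.1, 35.9 and 36.4 FPKM in DMSO and at 37.5, 37.7 and 38.6 FPKM in RIP1i, above Il1rn in every library. Its log2 fold change was 0.047 ± 0.042 (SE). Il33 had 0 to 6 reads in a library, Il1f6 0 or 1, and Il1f5, Il1f8 and Il1f10 none. Among the other receptors, Il1rl2, the interleukin-36 receptor, stood at 5.62 to 6.27 FPKM with a log2 fold change of 0.019 ± 0.049.

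The chains of the interleukin-18 receptor were low and varied between libraries. Il18rap, the accessory chain, stood at 1.43, 0.86 and 1.59 FPKM in DMSO and at 1.32, 2.10 and 1.01 FPKM in RIP1i. Il18r1, the binding chain, stood at 0.36, 0.24 and 0.71 FPKM in DMSO and at 0.35, 0.67 and 0.29 FPKM in RIP1i. Both were highest in DMSO replicate 3 and RIP1i replicate 2 and lowest in DMSO replicate 2, and their log2 fold changes were 0.19 ± 0.30 and 0.0097 ± 0.44 (SE). Il1rl1, the interleukin-33 receptor, and Sigirr, a negative regulator, had 0.079 ± 0.19 and -0.047 ± 0.11. Of these 5 tested receptors 4 were fitted higher and none passed, and Il1rapl1 and Il1rapl2 had no reads.

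The pathway below the receptor differed little between treatments. Of 14 genes of IL-1 receptor signalling, 4 were fitted higher and 10 lower, 0 passed, 0 had an unadjusted p under 0.05, and the median log2 fold change was -0.016 beside 0.0025 over all genes. The 4 with the smallest p were Traf6, a ubiquitin ligase of the pathway, at -0.071 ± 0.050 (SE), the kinase Irak1 at -0.052 ± 0.036, Tab1, a partner of the kinase TAK1, at -0.099 ± 0.071, and Irak4, the kinase next to MyD88, at 0.052 ± 0.041. Myd88 itself averaged 123 ± 3.66 CPM with DMSO against 122 ± 4.81 CPM with RIP1i (SD, n = 3).

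Genes for maturation and release split into 8 higher and 5 lower of 13, with 0 passing and a median of 0.038. The 8 include the weakly expressed Elane, Prtn3 and Ctsg, at 0.29 ± 0.34, 0.15 ± 0.37 and 0.36 ± 0.42 (SE). Each was highest in RIP1i replicate 2, a library high in neutrophil markers, and Elane is itself on the neutrophil list. Capn2, a calpain protease of the kind that cuts the interleukin-1 alpha precursor, had 0.090 ± 0.039 (SE). The inflammasome adaptor Pycard had -0.076 ± 0.041, the pore-forming Gsdmd -0.067 ± 0.037 and the inflammatory caspase Casp4 0.063 ± 0.067. Casp1, which cuts interleukin-1 beta and interleukin-18, had 0.038 ± 0.041, and the sensor Nlrp3 -0.042 ± 0.065. Capn2, Pycard and Gsdmd did not overlap between groups, 3 of 13 against 13.5% of all genes.

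Of 11 tested genes that IL-1 is known to induce through NF-kB, 5 were fitted higher and 6 lower, 0 passed and the median was -0.016. Icam1, an adhesion ligand, had the smallest p, at 134, 140 and 140 CPM in DMSO and 151, 151 and 153 CPM in RIP1i, a log2 fold change of 0.13 ± 0.036 (SE, edgeR adjusted p = 0.777). Nfkbia, the inhibitor that NF-kB induces, had 0.078 ± 0.039, the chemokine Cxcl2 -0.34 ± 0.19, and Nfkbiz, a nuclear cofactor of NF-kB, -0.20 ± 0.13. Icam1 and Nfkbia did not overlap between groups, 2 of 11 against 13.5% of all genes, and Csf3 was too weak to test.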

How the data were processed

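The 6 libraries (3 DMSO, 3 RIP1i, grouped by title) were sequenced from total RNA with an Illumina TruSeq kit, per the labels' protocols. The authors deposited raw read counts per gene and a matching FPKM table. The submitters' processing notes list mm10 and the tools DESeq2 1.14.0, STAR 2.5.3a and featureCounts and Subread. Which step each did, the annotation and the strand setting: not given in the sources used here. The deposited FPKM are the same reads scaled by gene and library, and were used to compare levels between genes and in the limma-trend alternatives.

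Counts were filtered with filterByExpr (minimum count 10, minimum total 15) and fitted with edgeR 4.0.16 in R 4.3.3, quasi-likelihood F test, 2-sided, TMM scaling, treatment as the only term, Benjamini-Hochberg adjustment over all 14857 genes. SE came from the F statistic. Log2 CPM used a prior count of 2. Alternatives used limma 3.58.1 and DESeq2 1.42.0. Positions are from GENCODE M21 (GRCm38), promoters from RefSeq, with all 8 genes matched.

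The genes, the lists (11 beside the members) and the tests were chosen with earlier results of these data known. The naming rule took all 8 genes, up to 4 genes with the smallest p of each list of pathway genes, and the 2 closest genes in pattern (mean of at least 10 CPM, no predicted genes), which are not reported here for Il18bp. Casp1, Nlrp3, Elane, Prtn3, Ctsg, Myd88, Il18r1, Csf3, Il33, the untested ligands and receptors and the named cell markers lie outside it. They are named from the fixed lists. Il1bos and Numa1 are named because they overlap a gene described here. No 2 libraries agreed within sampling noise: chi-square over degrees of freedom was at least 11.2 in each pair. The closest pair, at 11.2, was DMSO replicate 3 with RIP1i replicate 2, so it crossed the treatments. Pairs within DMSO ran from 12.4 to 18.3, within RIP1i from 29.3 to 35.2, and between treatments from 11.2 to 39.3.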

Additional observations from a re-analysis of the deposited data

How the results depend on the processing

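No member passed under any of 17 alternatives, which kept an adjusted p of 0.05 except where the threshold was raised to 0.1. Nor did any pass without DMSO replicate 2 and RIP1i replicate 2, the libraries with the most and the least stromal markers. That alternative was chosen after seeing the data. Over all genes the count of 0 became 2 with DESeq2 and 4 with limma-trend on log2(FPKM + 1) without a filter, and the cause was not tested. At an unadjusted p under 0.05 edgeR had 923 genes, DESeq2 571 and limma-voom 910.

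Scaling, filter, test and pseudocount reversed no member. With each library left out, the log2 fold change ran from -0.23 to -0.12 for Il1a, -0.37 to 0.038 for Il1b, -0.027 to 0.063 for Il1rn, -0.38 to 0.11 for Il1r1, -0.19 to 0.61 for Il1r2, 0.16 to 0.33 for Il1rap, -0.37 to 0.14 for Il18 and 0.036 to 0.10 for Il18bp. Count ranges stayed at 0. Without those 2 libraries, Il1b was at 0.18, Il1r1 at 0.25 and Il1r2 at -0.35, each of reversed sign, and Il18 at -0.40 against -0.011 with all libraries (edgeR unadjusted p = 0.014, adjusted p = 0.602). The cause was not tested.

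Replicate numbers gave no sign of a pairing: deviations of same-numbered libraries correlated at 0.0058, -0.53 and -0.48. Pairs of unlike number ran from -0.31 to 0.60, the highest being DMSO replicate 3 with RIP1i replicate 2. Whether libraries of the 2 treatments shared a culture or a batch is not given in the labels, and these correlations cannot settle it. With the replicate number as a block, 0 genes and 0 members passed, Il1rap had 0.27 and Il1a -0.16, with 413 genes at an unadjusted p under 0.05. Counting error was largest for Il18 and Il1r1, at 6.72% and 6.51% of the level.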
